A study of Mus musculus with 16 samples.

Results

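The genes described here are the chemokines, the interleukins with *Lif*, and the interleukin receptors and binding proteins of fibroblasts in the first 6 days of reprogramming. They were taken by symbol (names that begin with Ccl, Cxcl or Il and a number, together with *Cx3cl1*, *Ppbp* and *Lif*) and come to 70 of the 18990 genes in the table. By role there were 11 CC chemokines, 11 CXC and CX3C chemokines, 16 interleukins with *Lif*, 31 receptors and binding proteins, and the enzyme *Il4i1*, which shares the name but is an amino acid oxidase. The rule reads names and no level. It also takes the related platelet chemokine gene *Pf4*, which had no row under that symbol in the table and was not analysed here.

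The cells were primary mouse embryonic fibroblasts (MEFs) of wild-type BL6 mice, reprogrammed at passage 2. All groups had been transduced with a doxycycline-inducible lentivirus for *Oct4*, *Sox2*, *Klf4* and c-Myc (OSKM) and with a lentivirus for the rtTA activator, at a multiplicity of infection of 1. They were then transfected with 40 nM pooled siRNAs: non-targeting siRNA (nt) in the controls, or siRNA against *Wdr5*, *Brca1* or *Bard1* (siWdr5, siBrca1, siBard1). Induction began 24 hours later on gelatin-coated wells, in a medium that held 2 µg/mL doxycycline, 3 µM chiron, 0.25 µM of an Alk5 inhibitor, 50 µg/mL ascorbic acid and LIF. RNA was taken at 2 times, day 3 and day 6 of induction, with 2 libraries for each of the 8 groups, 16 in all. Every group is therefore wild-type, carries OSKM and received an siRNA. The study describes the libraries of a group as independent replicates and the labels only number them. The p-values rest on the spread between libraries of the same group, pooled over all groups of a fit and drawn toward that of genes of like level. They do not measure the spread of the pair compared. WDR5 is a core subunit of the complexes that methylate histone H3 at lysine 4, and BRCA1 and BARD1 form a heterodimer with a role in DNA repair.

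Chemokines are small secreted proteins that attract leukocytes. The CC chemokines of the monocyte chemoattractant group (*Ccl2*, *Ccl7*, *Ccl8*) act on monocytes. The CXC chemokines next to each other on chromosome 5 (*Cxcl1*, *Cxcl2*, *Cxcl3*, *Cxcl5*, *Cxcl15* and *Ppbp*) act on neutrophils, most of them through Cxcr2. Fibroblasts make both kinds when NF-kB is activated by IL-1, TNF or toll-like receptors. IL-6, IL-11 and LIF each bind a receptor of their own and then share the signalling chain gp130, the product of *Il6st*, which activates JAK kinases and STAT3. LIF was part of the medium of every group, so the cells had the protein whatever they transcribed.

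Promoters of 6 members, picked after their values were seen, are shown because they differ in an NF-kB motif: the neighbours *Cxcl1*, *Cxcl2* and *Cxcl3* and the cytokine gene *Il6* hold it, and *Ppbp* and *Ccl8*, with the largest changes in siWdr5 at day 3, do not. *Cxcl2* was called in no knockdown in the main run, but it was called in siBrca1 at day 3 under some alternative settings, given below. Each is the last 120 bases before the RefSeq transcription start on GRCm38.p6, read 5′ to 3′, with matches to the kappa B-like letters GGANTTTCC in capitals.
Cxcl1 (chr5:90891125-90891244, plus strand): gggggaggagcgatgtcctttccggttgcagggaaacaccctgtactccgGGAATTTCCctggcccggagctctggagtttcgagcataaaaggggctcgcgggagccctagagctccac
Cxcl2 (chr5:90903779-90903898, plus strand): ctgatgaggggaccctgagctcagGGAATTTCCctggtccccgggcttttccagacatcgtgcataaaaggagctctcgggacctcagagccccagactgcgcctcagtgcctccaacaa
Cxcl3 (chr5:90785981-90786100, plus strand): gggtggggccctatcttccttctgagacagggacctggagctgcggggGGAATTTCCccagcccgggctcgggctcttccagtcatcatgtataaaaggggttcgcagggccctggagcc
Il6 (chr5:30012994-30013113, plus strand): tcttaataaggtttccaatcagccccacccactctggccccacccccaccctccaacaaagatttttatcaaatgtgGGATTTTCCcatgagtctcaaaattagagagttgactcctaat
Ppbp (chr5:90768398-90768517, plus strand): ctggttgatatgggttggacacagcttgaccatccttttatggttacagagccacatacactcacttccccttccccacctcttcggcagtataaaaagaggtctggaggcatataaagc
Ccl8 (chr11:82115065-82115184, plus strand): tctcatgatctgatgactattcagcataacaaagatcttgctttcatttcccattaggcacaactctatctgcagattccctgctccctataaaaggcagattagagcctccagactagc
The matches ended 62, 88, 64 and 35 bases before the start in *Cxcl1*, *Cxcl2*, *Cxcl3* and *Il6*. *Ppbp* and *Ccl8* had none in this window, although all but *Il6* of the printed promoters held the TATA-like letters ATAAA on the printed strand. Of the 70 members 56 had a RefSeq promoter, and 7 of these held the kappa B-like letters on either strand (*Cxcl1*, *Cxcl2*, *Cxcl3*, *Il6*, *Il16*, *Il18rap* and *Il1rl2*), against 0.496% of 32851 promoters. The AP-1 letters TGANTCA, searched on both strands, lay in 7 of the 56 and in 3.41% of all promoters. TATA-like letters, on 1 strand, lay in 19 of the 56 and in 12.6% of all. A member counted if any of its promoters matched, whereas the shares of all promoters count each promoter singly, so these measures are not alike. Promoters of gene families share descent, these matches are letters in a short window, and none of the libraries measured binding.

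Sequencing gave 11169738 to 26832534 reads per library. Levels are given as CPM, a read count scaled to the total of its library, on the linear scale of the deposited log2 values. These include a small prior, so that 0 reads stand at 0.136 CPM, and 3 reads alone are worth 0.115 to 0.260 CPM. At day 3 *Wdr5* stood at 131 ± 0.901 CPM in nt and 53.0 ± 3.28 CPM in siWdr5 (mean ± SD, n = 2), *Brca1* at 80.2 ± 3.11 and 28.4 ± 12.8 CPM in nt and siBrca1, and *Bard1* at 29.8 ± 1.01 and 19.4 ± 1.98 CPM in nt and siBard1. *Brca1* was uneven in siBrca1, at 37.5 and 19.4 CPM. Each target was also below nt at day 3 in the knockdowns of the other targets: siBrca1 and siBard1 held 71.6 ± 3.77 and 94.3 ± 3.29 CPM of *Wdr5*, siWdr5 and siBard1 held 44.5 ± 5.62 and 61.9 ± 5.91 CPM of *Brca1*, and siWdr5 and siBrca1 held 14.6 ± 1.03 and 11.8 ± 3.80 CPM of *Bard1*, both lower than in siBard1. At day 6 the targeted transcripts were nearer to nt: *Wdr5* 95.0 ± 4.49 against 78.9 ± 9.28 CPM, *Brca1* 37.9 ± 6.64 against 38.0 ± 2.96 CPM, and *Bard1* 12.6 ± 1.95 against 13.5 ± 1.30 CPM. A gene was called when its adjusted p (limma, over the 14028 genes whose log2 CPM averaged 0 or more across libraries) was under 0.05 and its absolute log2 fold change was above 1. Of the members 46 passed this level filter and 24 did not.

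The labelled cell type was checked by markers. All 10 fibroblast markers (*Col1a1*, *Fn1*, *Thy1* and others) were measured, and their summed level at day 3 was 9766 and 10934 CPM in nt, 18271 and 18831 CPM in siWdr5, 17085 and 17724 CPM in siBrca1, and 14485 and 12567 CPM in siBard1. Leukocyte markers were low: the 9 of 13 macrophage and leukocyte genes with a row summed to 17.3 and 15.5 CPM in nt, 30.5 and 33.4 CPM in siWdr5, 32.5 and 25.2 CPM in siBrca1, and 18.1 and 17.6 CPM in siBard1 at day 3, and to 29.8 and 24.6 CPM in nt, 32.5 and 34.8 CPM in siWdr5, 40.6 and 31.8 CPM in siBrca1, and 25.9 and 25.1 CPM in siBard1 at day 6. Among them *Adgre1*, the F4/80 antigen of macrophages, had 0 to 7 reads per library at day 3 and 0 to 16 at day 6, and *Tyrobp* had 0 to 8 and 0 to 10. The 2 lymphocyte genes with a row, *Cd4* and *Cd79a*, had 1 to 17 reads, and the 3 platelet genes summed to 3.43 to 8.44 CPM over the 16 libraries. Endothelial markers came almost only from *Tek*, while *Cdh5* had 0 to 13 reads and *Pecam1* 0 to 35, and the 6 genes with a row summed to 42.1 and 41.2 CPM in nt, 53.8 and 60.6 CPM in siWdr5, 43.5 and 24.8 CPM in siBrca1, and 40.8 and 48.6 CPM in siBard1 at day 3. The fibroblast sum and the macrophage sum were both higher in each knockdown library than in both nt libraries at day 3, so they moved with the chemokines described next. The macrophage sum in siBard1 was only just above nt. Single fibroblast markers differed from the sum: *Fn1*, *Lum* and *Thy1* were called higher in siWdr5, *Fn1* in siBrca1 and none in siBard1. Most of the fibroblast sum came from *Col1a1*, *Fn1*, *Vim* and *Col1a2*, with 50207, 30655, 29543 and 19287 reads in nt replicate 1 at day 3. Each of these had more reads in both siBrca1 libraries than in both nt libraries. In siBrca1, from slightly shallower libraries, *Dcn* had 299 and 300 reads against 479 and 530 in nt, and *Lum* 101 and 58 against 193 and 130. *Col3a1* had 9849 and 6847 reads there against 11818 and 13482 in nt. The endothelial sum was higher than nt in both siWdr5 libraries and in 1 of 2 libraries each of siBrca1 and siBard1. The part of these sums in the results was not tested. In bulk RNA, fewer cells of a type and less RNA per cell cannot be told apart.

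At day 3 the knockdown of *Wdr5* raised 10 of the 46 members tested and lowered none. The 10 were the monocyte chemoattractants *Ccl2*, *Ccl7* and *Ccl8*, the neutrophil chemoattractants *Cxcl1*, *Cxcl3* and *Ppbp*, the tissue chemokine *Cxcl14*, the gp130 cytokines *Il6* and *Il11*, and the IL-1 receptor *Il1r1*. Over all genes tested, 4.1% were called higher and 2.95% lower, against 21.7% and 0% of the members. siBrca1 raised 6 members (*Ccl8*, *Cxcl1*, *Cxcl3*, *Cxcl5*, *Ppbp* and *Il6*) and lowered 2, the receptor chains *Il20ra* and *Il31ra*, against a background of 7.12% higher and 6.27% lower. Under quantile normalization the siBrca1 split was 8 higher and 1 lower, with *Cxcl2* and *Il11* added and *Il20ra* lost. siBard1 raised 3 (*Ppbp*, *Il6* and *Il7*) and lowered none, against 1.58% and 0.656%. *Il6* and *Ppbp* were called in all 3 knockdowns. By adjusted p alone, whatever the fold, 21, 22 and 11 members passed in siWdr5, siBrca1 and siBard1 (45.7%, 47.8% and 23.9% of the 46), against 35.0%, 47.2% and 14.5% of all genes. The 3 comparisons share the same nt libraries, so their calls are not independent of each other.

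**Figure D1:**
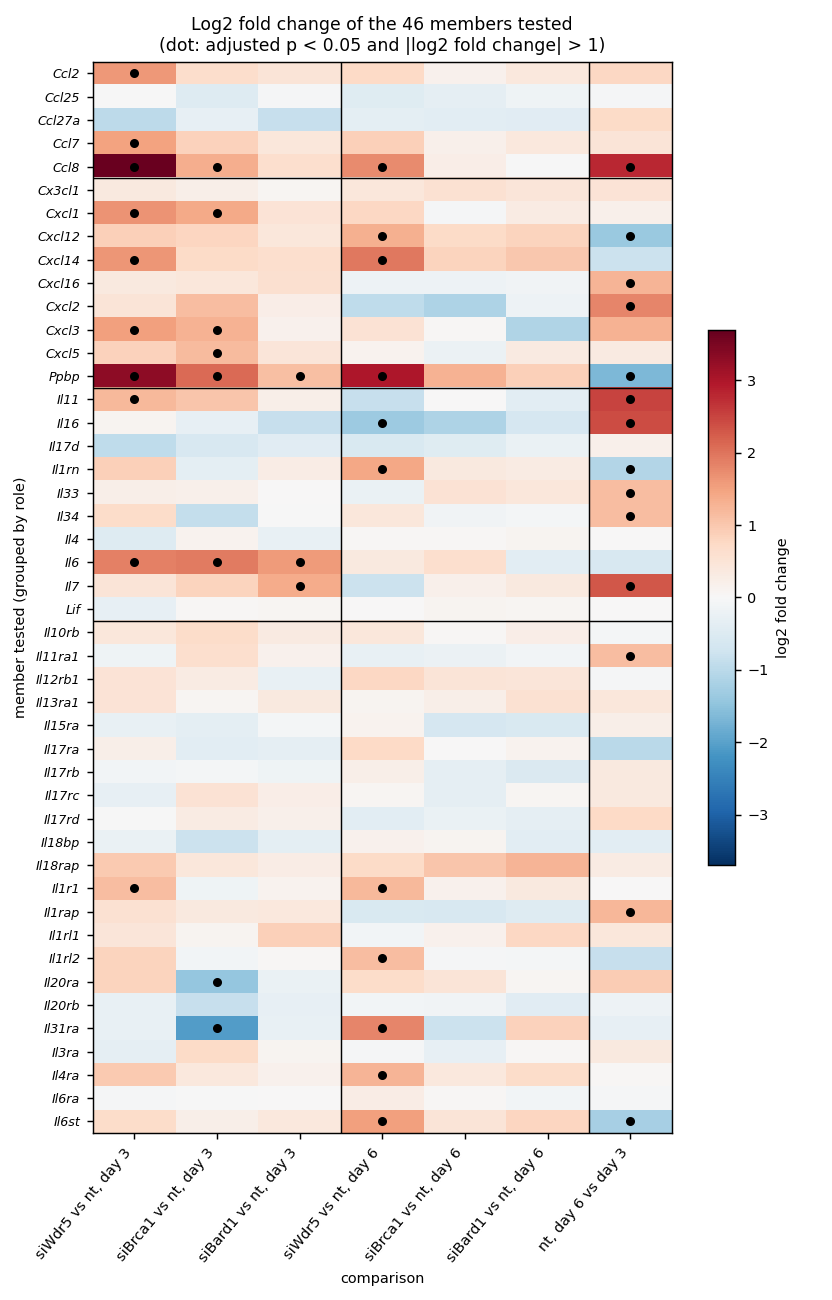
Log2 fold change (colour) of the 46 members tested, in rows grouped by role, for the 3 knockdowns against nt at day 3 and at day 6 and for nt at day 6 against day 3. Dots mark an adjusted p under 0.05 with an absolute log2 fold change above 1. At day 3 the dots of the knockdowns lie mostly on chemokines and *Il6*, at day 6 they lie in siWdr5 and in no other knockdown.

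At day 3 the 46 members had a median log2 fold change of 0.48, 0.27 and 0.16 in siWdr5, siBrca1 and siBard1, beside −0.042, 0.0022 and −0.021 over all genes tested. The roles differed in siWdr5, with medians of 1.5 for 5 CC chemokines, 0.88 for 9 CXC and CX3C chemokines, 0.36 for 10 interleukins with *Lif* and 0.31 for 22 receptors and binding proteins. In siBrca1 the CXC and CX3C chemokines had a median of 1.15 and the receptors 0.10. All 9 CXC and CX3C chemokines tested had a value above 0 in each of the 3 knockdowns at day 3, though only 4, 4 and 1 of them were called in siWdr5, siBrca1 and siBard1. Of all 46 members tested, 31, 30 and 32 had a value above 0, and the 3 comparisons share the nt libraries.

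The monocyte chemoattractants lie together on chromosome 11 within 81.2 kb (chr11:82035571-82116799, GRCm38), where the members with a row follow in the order *Ccl2*, *Ccl7*, *Ccl11* and *Ccl8*. *Ccl2*, the main ligand of *Ccr2* on monocytes, stood at 14.7 and 16 CPM in nt, 42.4 and 50.8 CPM in siWdr5, 23.9 and 24.5 CPM in siBrca1, and 20.5 and 22.0 CPM in siBard1 at day 3. Both siWdr5 libraries lay above every other library of that day, and the siBrca1 and siBard1 libraries lay above both nt libraries. The rise in siWdr5 was 3.02-fold (log2 fold change 1.59, SE 0.13, adjusted p = 3.78e-06), and the values in siBrca1, 0.65 (SE 0.13, adjusted p = 0.00116), and siBard1, 0.47 (SE 0.13, adjusted p = 0.0318), passed the p threshold at under 2-fold, the 1 unit of log2 that a call needs.

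*Ccl7*, a close relative that also attracts monocytes, had the highest level per kilobase of exon of all 70 members in nt at day 3, 35.6 CPM per kb, followed by *Cxcl5* with 34.2 and *Il6st* with 30.3 CPM per kb. Its libraries read 26.7 and 30.4 CPM in nt, 74.1 and 87.2 CPM in siWdr5, 49.2 and 54.0 CPM in siBrca1, and 39.9 and 36 CPM in siBard1. The order of the groups was that of *Ccl2*, with no overlap between siWdr5 and any other group. *Ccl7* rose 2.82-fold in siWdr5 (log2 fold change 1.5, SE 0.12, adjusted p = 3.78e-06), and its log2 difference was 0.86 (SE 0.12, adjusted p = 0.000114) in siBrca1 and 0.41 (SE 0.12, adjusted p = 0.0416) in siBard1.

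*Ccl8* in siWdr5 gave the largest log2 fold change among the 46 members tested against nt. It was near the detection limit in nt, with 7 and 8 reads, and stood at 0.598 and 0.593 CPM in nt, 6.23 and 9.03 CPM in siWdr5, 1.61 and 1.40 CPM in siBrca1, and 0.907 and 0.916 CPM in siBard1. Again siWdr5 was apart from all other groups, siBrca1 lay above nt and siBard1, and siBard1 lay above nt by a small step. *Ccl8* rose 12.6-fold in siWdr5 (log2 fold change 3.66, SE 0.31, adjusted p = 4.10e-06) and 2.53-fold in siBrca1 (log2 fold change 1.34, SE 0.31, adjusted p = 0.00286). The log2 difference in siBard1 was 0.61 (SE 0.31, adjusted p = 0.192) and not called. The summed level of these 4 members of the cluster was 41.8 and 46.7 CPM in nt, 123 and 147 CPM in siWdr5, 74.6 and 79.7 CPM in siBrca1, and 60.9 and 58.7 CPM in siBard1. Among the 7 other CC chemokines, 2 passed the level filter (*Ccl25* and *Ccl27a*). Neither was called in a knockdown, and *Ccl27a* has near-identical copies in the mouse genome that could share its reads.

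**Figure D2:**
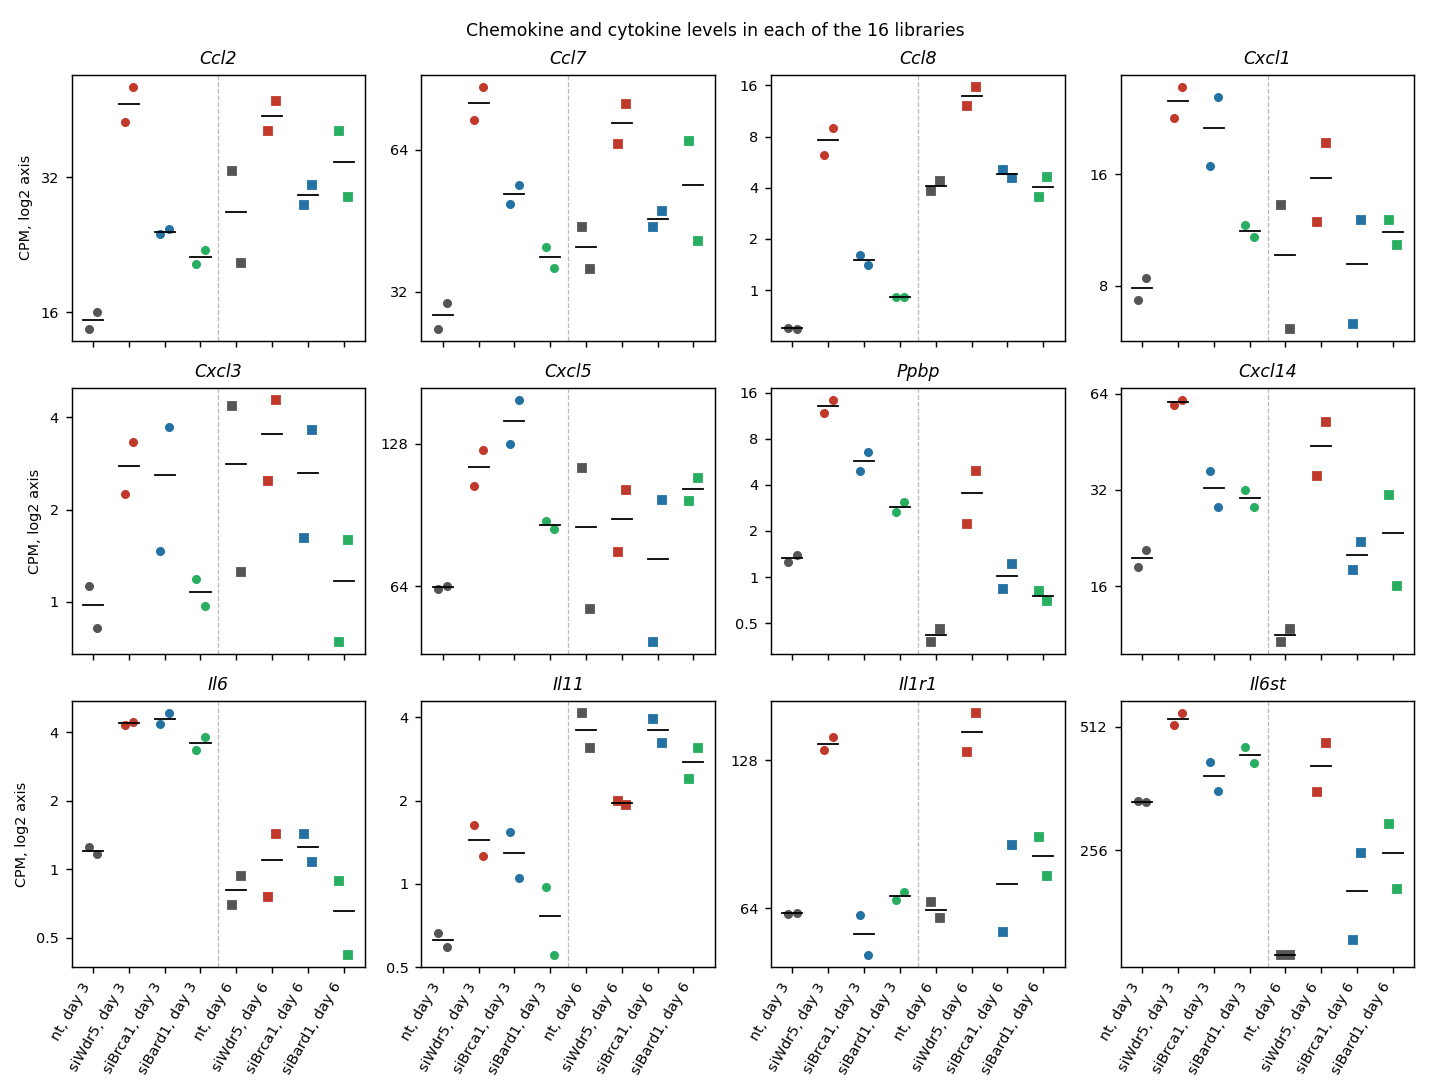
Level of 12 members in each of the 16 libraries, in CPM on a log2 axis with its own range for each gene. Points are libraries (circles day 3, squares day 6), black lines are means of 2 libraries, and the dashed line parts the days. *Ccl8* stood at 0.598 and 0.593 CPM in nt and at 6.23 and 9.03 CPM in siWdr5 at day 3, and the 2 nt libraries of day 6 are far apart for *Cxcl1*, *Cxcl3* and *Cxcl5*.

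The neutrophil chemoattractants lie on chromosome 5 within 146.6 kb (chr5:90759360-90905938), where the members with a row follow in the order *Cxcl5*, *Ppbp*, *Cxcl3*, *Cxcl15*, *Cxcl1* and *Cxcl2*. *Cxcl1*, the gene best known as KC, stood at 7.33 and 8.41 CPM in nt, 22.7 and 27.5 CPM in siWdr5, 16.8 and 25.9 CPM in siBrca1, and 11.6 and 10.8 CPM in siBard1 at day 3. The siWdr5 and siBrca1 libraries overlapped each other, and both groups lay above siBard1 and nt. *Cxcl1* rose 3.19-fold in siWdr5 (log2 fold change 1.67, SE 0.19, adjusted p = 3.77e-05) and 2.66-fold in siBrca1 (log2 fold change 1.41, SE 0.19, adjusted p = 7.34e-05), with 0.51 (SE 0.19, adjusted p = 0.0873) in siBard1.

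*Cxcl5*, another neutrophil attractant, stood at 63.2 and 64.1 CPM in nt, 104 and 124 CPM in siWdr5, 128 and 159 CPM in siBrca1, and 87.8 and 84.4 CPM in siBard1. Here siBrca1 was the highest group, above siWdr5, siBard1 and nt in that order, without overlap. It rose 2.24-fold in siBrca1 (log2 fold change 1.16, SE 0.12, adjusted p = 1.14e-05), while the values in siWdr5, 0.84 (SE 0.12, adjusted p = 0.000215), and siBard1, 0.44 (SE 0.12, adjusted p = 0.0310), stayed under the fold threshold.

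*Ppbp*, which encodes the precursor of platelet basic protein, stood at 1.26 and 1.39 CPM in nt, 11.8 and 14.3 CPM in siWdr5, 4.93 and 6.54 CPM in siBrca1, and 2.66 and 3.10 CPM in siBard1. The 4 groups were fully separated, in the order siWdr5, siBrca1, siBard1 and nt. *Ppbp* rose 9.85-fold in siWdr5 (log2 fold change 3.30, SE 0.23, adjusted p = 2.04e-06), 4.29-fold in siBrca1 (log2 fold change 2.10, SE 0.23, adjusted p = 1.51e-05) and 2.17-fold in siBard1 (log2 fold change 1.12, SE 0.23, adjusted p = 0.00714). The siBard1 call was lost without nt replicate 1 (1.05) or siBard1 replicate 2 (1.01). *Ppbp* is itself a platelet gene. Of the platelet markers, *Itga2b* and *Gp1ba* passed the level filter, and their log2 differences at day 3 were 0.80 and 0.89 in siWdr5, 0.70 and 1.01 in siBrca1, and 0.31 and 0.16 in siBard1, with *Gp1ba* called in siBrca1. Their part in the rise of *Ppbp* was not tested.

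*Cxcl3* and *Cxcl2* were measured from few reads. *Cxcl3* stood at 1.13 and 0.821 CPM in nt, 2.25 and 3.32 CPM in siWdr5, 1.46 and 3.72 CPM in siBrca1, and 1.19 and 0.968 CPM in siBard1, so that siBrca1 had 1 library near nt and 1 above all others. Its call in siWdr5, 1.51 (SE 0.41, adjusted p = 0.0120), was lost without nt replicate 2 or siWdr5 replicate 2 (log2 fold changes of 1.28 and 1.23), and its call in siBrca1, 1.28 (SE 0.41, adjusted p = 0.0200), without nt replicate 2 (1.05) or siBrca1 replicate 2 (0.61). *Cxcl2* had 8 and 7 reads in nt, 6 and 18 in siWdr5, 16 and 17 in siBrca1, and 8 and 11 in siBard1, and its log2 difference was 0.47, 1.15 and 0.24 in the 3 knockdowns, none of them called in the main run. In siBrca1 it was called higher under quantile normalization and with values centred on the median gene. It was also called there by limma-voom on the reads and with the replicate block. The summed level of the 6 genes was 73.0 and 74.5 CPM in nt, 143 and 172 CPM in siWdr5, 152 and 195 CPM in siBrca1, and 104 and 99.5 CPM in siBard1, so siWdr5 and siBrca1 overlapped and siBard1 lay between them and nt.

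**Figure D3:**
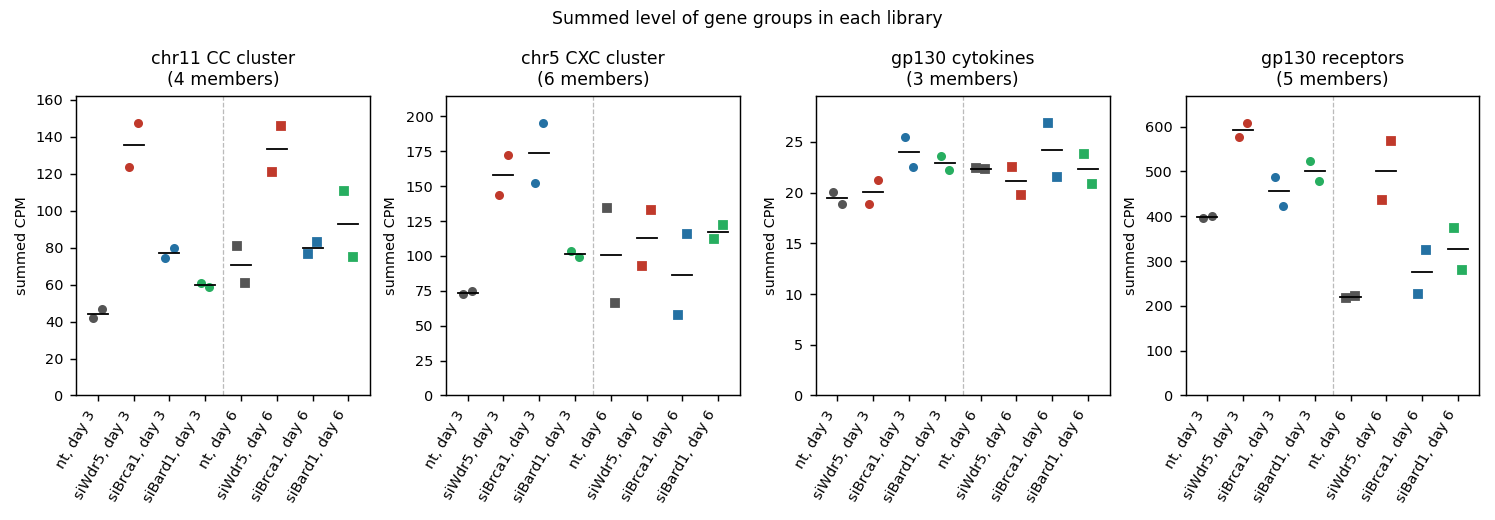
Summed level in CPM, on axes from 0, of the chromosome 11 CC cluster (4 members), the chromosome 5 CXC cluster (6), the gp130 cytokines *Il6*, *Il11* and *Lif* (3) and the gp130 receptors (5) in each library, with means of 2 libraries as black lines. The CC cluster is highest in siWdr5 on both days, the CXC cluster is higher in siWdr5 and siBrca1 than in nt at day 3, and the gp130 cytokine sum, to which *Lif* gives most reads, spans 18.9 to 26.9 CPM over all libraries.

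The remaining CXC and CX3C chemokines lie outside this cluster. *Cxcl14*, a chemokine of epithelia and stroma, stood at 18.4 and 20.7 CPM in nt, 59.0 and 61.2 CPM in siWdr5, 36.6 and 28.3 CPM in siBrca1, and 32.0 and 28.3 CPM in siBard1 at day 3, with siWdr5 above siBrca1 and siBard1, which overlapped, and these above nt. It rose 3.08-fold in siWdr5 (log2 fold change 1.62, SE 0.14, adjusted p = 4.45e-06), and the other log2 differences were 0.72 (SE 0.14, adjusted p = 0.000870) in siBrca1 and 0.62 (SE 0.14, adjusted p = 0.0111) in siBard1. *Cxcl12*, the stromal ligand of *Cxcr4*, stood at 45.7 and 53.9 CPM in nt, 88.8 and 94.0 CPM in siWdr5, 82.5 and 90.9 CPM in siBrca1, and 67.4 and 66.1 CPM in siBard1. The siWdr5 and siBrca1 libraries overlapped and lay above siBard1, which lay above nt, with differences of 0.88 (SE 0.11, adjusted p = 8.27e-05), 0.80 (SE 0.11, adjusted p = 8.65e-05) and 0.43 (SE 0.11, adjusted p = 0.0237), all short of the fold threshold.

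*Cx3cl1*, the membrane-tethered fractalkine, stood at 8.91 and 8.52 CPM in nt, 9.96 and 12.5 CPM in siWdr5, 10.3 and 10.1 CPM in siBrca1, and 10.0 and 8.35 CPM in siBard1. siBard1 overlapped nt, siWdr5 overlapped siBrca1 and siBard1, and no knockdown passed the p threshold (0.36, 0.23 and 0.070, SE 0.17). *Cxcl10*, which interferon induces, was below the level filter, with 15 and 7 reads in nt, 2 and 6 in siWdr5, 10 and 6 in siBrca1, and 19 and 16 in siBard1. In *Ccl5*, another gene of antiviral responses, the counts were 1 and 6 reads in nt, 9 and 5 in siWdr5, 18 and 7 in siBrca1, and 10 and 9 in siBard1, also below the filter. Neither gene had a library above 19 reads at day 3.

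Among the gp130 cytokines *Il6* rose in all 3 knockdowns at day 3 and *Lif* in none. *Il6* stood at 1.26 and 1.16 CPM in nt, 4.30 and 4.45 CPM in siWdr5, 4.34 and 4.85 CPM in siBrca1, and 3.36 and 3.83 CPM in siBard1, from 17 and 18 reads in nt and 46 to 71 in the knockdown libraries. All 6 knockdown libraries lay above both nt libraries, and siWdr5 and siBrca1 overlapped. It rose 3.62-fold in siWdr5 (log2 fold change 1.86, SE 0.23, adjusted p = 7.22e-05), 3.79-fold in siBrca1 (log2 fold change 1.92, SE 0.23, adjusted p = 3.02e-05) and 2.97-fold in siBard1 (log2 fold change 1.57, SE 0.23, adjusted p = 0.000985).

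*Il11* stood at 0.664 and 0.593 CPM in nt, 1.63 and 1.26 CPM in siWdr5, 1.54 and 1.05 CPM in siBrca1, and 0.978 and 0.552 CPM in siBard1. Its siWdr5 and siBrca1 libraries lay above nt and overlapped each other, and siBard1 overlapped nt. The rise in siWdr5 was 2.29-fold (log2 fold change 1.19, SE 0.40, adjusted p = 0.0336), from 8 reads in each nt library, and the call was lost whichever of the 4 libraries was left out (log2 fold change 1.01 to 1.38). The value in siBrca1 was 1.02 (SE 0.40, adjusted p = 0.0511).

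*Lif* stood at 18.5 and 17.5 CPM in nt, 13.4 and 15.9 CPM in siWdr5, 19.98 and 17.1 CPM in siBrca1, and 19.7 and 18.3 CPM in siBard1 at day 3, and at 18.0 and 18.7 CPM in nt, 20.2 and 16.8 CPM in siWdr5, 21.9 and 17.6 CPM in siBrca1, and 21.0 and 17.8 CPM in siBard1 at day 6. The 16 libraries spanned 13.4 to 21.9 CPM. The log2 differences from nt were −0.30, 0.035 and 0.073 at day 3 (SE 0.15) and 0.0071, 0.098 and 0.073 at day 6 (SE 0.17), in siWdr5, siBrca1 and siBard1, with adjusted p between 0.123 and 0.980.

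The other cytokines gave a single call at day 3. *Il7*, a growth factor of lymphocyte precursors, had 7 and 10 reads in nt, 9 and 16 in siWdr5, 15 and 13 in siBrca1, and 23 and 28 in siBard1 and rose 2.57-fold in siBard1 (log2 fold change 1.36, SE 0.38, adjusted p = 0.0293), a call that was lost whichever of the 4 libraries was left out (1.24 to 1.48). *Il33*, an alarmin of the IL-1 family, stood at 6.01 and 4.13 CPM in nt, 5.73 and 5.91 CPM in siWdr5, 5.82 and 5.62 CPM in siBrca1, and 4.76 and 5.23 CPM in siBard1 with overlapping groups and differences of 0.23, 0.20 and 0.0030 (SE 0.22). *Il1rn*, the secreted antagonist of the IL-1 receptor, had a difference of 0.89 (SE 0.27, adjusted p = 0.0193) in siWdr5, and *Il34*, the second ligand of *Csf1r*, one of −0.88 (SE 0.26, adjusted p = 0.0140) in siBrca1. *Il17d* had −0.94 (SE 0.30, adjusted p = 0.0247) in siWdr5. None of these 3 reached the fold threshold.

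The receptors showed fewer calls. *Il1r1*, the signalling receptor of IL-1, stood at 62.4 and 62.6 CPM in nt, 134 and 143 CPM in siWdr5, 62.2 and 51.3 CPM in siBrca1, and 66.5 and 69.0 CPM in siBard1 at day 3. Its siWdr5 libraries were far above the rest, siBrca1 lay at or below nt, and siBard1 just above it. It rose 2.21-fold in siWdr5 (log2 fold change 1.15, SE 0.11, adjusted p = 1.12e-05), with −0.15 (SE 0.11, adjusted p = 0.305) in siBrca1 and 0.12 (SE 0.11, adjusted p = 0.513) in siBard1.

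*Il1r1* belongs to a cluster of IL-1 receptor genes on chromosome 1 (chr1:40074079-40551705) with *Il1r2*, *Il1rl2*, *Il1rl1* and *Il18rap*. *Il1rl1*, the receptor of IL-33, stood at 76.4 and 62.6 CPM in nt, 85.7 and 104 CPM in siWdr5, 81.9 and 68.5 CPM in siBrca1, and 139 and 117 CPM in siBard1. Its siBard1 libraries were the highest, and siBrca1 overlapped nt. The differences were 0.88 (SE 0.14, adjusted p = 0.00147) in siBard1, 0.45 (SE 0.14, adjusted p = 0.0231) in siWdr5 and 0.11 in siBrca1, none of them at 2-fold. In siWdr5 the IL-36 receptor *Il1rl2* (0.82, SE 0.16, adjusted p = 0.00181), the IL-18 receptor chain *Il18rap* (0.98, SE 0.28, adjusted p = 0.0147) and the accessory chain *Il1rap* (0.56, SE 0.15, adjusted p = 0.00985) also passed the p threshold under 2-fold.

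*Il6st*, which encodes gp130, stood at 337 and 335 CPM in nt, 515 and 552 CPM in siWdr5, 420.1 and 357 CPM in siBrca1, and 458 and 417 CPM in siBard1. All knockdown libraries lay above nt, and siWdr5 lay above the others. The differences were 0.67 (SE 0.11, adjusted p = 0.000581) in siWdr5, 0.21 (SE 0.11, adjusted p = 0.145) in siBrca1 and 0.38 (SE 0.11, adjusted p = 0.0376) in siBard1, under the fold threshold. *Il6ra*, the chain that binds IL-6 itself, stood between 40.5 and 43.5 CPM in all 8 day 3 libraries.

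*Il31ra*, the neighbour of *Il6st* on chromosome 13 and a receptor chain for IL-31, went down in siBrca1. It stood at 4.16 and 5.5 CPM in nt, 4.68 and 3.32 CPM in siWdr5, 2.72 and 0.488 CPM in siBrca1, and 3.29 and 4.76 CPM in siBard1, from 35 reads in siBrca1 replicate 1 and 5 in replicate 2. The siBrca1 libraries were both below nt but far apart, and the fall, −2.05 (SE 0.55, adjusted p = 0.00692), was −0.82 and not called without replicate 2. *Il20ra*, a chain of the IL-20 receptor, fell by 1.44 on the log2 scale in siBrca1 (SE 0.48, adjusted p = 0.0248), from 8 and 18 reads in nt, 21 and 23 in siWdr5, 5 and 1 in siBrca1, and 10 and 10 in siBard1, and this call was lost without nt replicate 2 (−1.04) or siBrca1 replicate 2 (−0.80). *Il4ra*, the shared chain of the IL-4 and IL-13 receptors, had 0.97 (SE 0.11, adjusted p = 3.36e-05) in siWdr5. The other 12 receptors and binding proteins tested were called in no knockdown at day 3.

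The knockdowns were also compared with each other at day 3, a comparison that was added after the data had been seen. *Brca1* and *Bard1* were lower in siWdr5 than in siBard1, as given above, and the part of these overlaps between knockdowns was not tested. Against siBrca1, siWdr5 was higher in 7 members and lower in 1 (background 1.6% and 3.13%), and by adjusted p alone 17 members passed, against 15.7% of all genes. The higher ones were *Ccl8* (2.32, SE 0.31, adjusted p = 0.000361), *Ppbp* (1.20), *Il1r1* (1.29, SE 0.11, adjusted p = 2.23e-05), *Il1rn* (1.25), *Il20ra* (2.26), *Il31ra* (1.78) and *Il34* (1.55, SE 0.26, adjusted p = 0.00176), and the lower one was *Il3ra*, a chain of the IL-3 receptor (−1.04, SE 0.17, adjusted p = 0.00139). *Il6*, *Cxcl1* and *Cxcl3* were not called, with differences of −0.068 (SE 0.23, adjusted p = 0.874), 0.26 (SE 0.19, adjusted p = 0.384) and 0.23 (SE 0.41, adjusted p = 0.749). With values centred on the median gene, or under quantile normalization, the split was 6 higher and 0 lower, since *Il31ra* and *Il3ra* were not called. *Ccl8*, *Il1r1* and *Il34* were called without each library in turn. Lost without siWdr5 replicate 2 were *Ppbp* (1.06), *Il1rn* (1.16), *Il20ra* (2.16) and *Il31ra* (2.02). Without siWdr5 replicate 1, *Il1rn* (1.34), *Il20ra* (2.36), *Il31ra* (1.53) and *Il3ra* (−0.95) were lost. Leaving out siBrca1 replicate 1 lost *Ppbp* (0.99), and replicate 2 lost *Il1rn* (0.62) and *Il31ra* (0.54).

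Against siBard1, siWdr5 was higher in 6 members and lower in none (background 1.18% and 0.877%), and by adjusted p alone 12 members passed, against 8.63% of all genes. They were *Ccl8* (3.04, SE 0.31, adjusted p = 0.000105), *Ppbp* (2.18, SE 0.23, adjusted p = 0.000146), *Cxcl1* (1.16), *Ccl2* (1.13), *Ccl7* (1.09) and *Il1r1* (1.03). *Il6* differed by 0.29 (SE 0.23, adjusted p = 0.468). Of these 6, *Ccl8* and *Ppbp* were called without siWdr5 replicate 2, and the others then had 0.97 to 1.02. *Cxcl1* was also lost without siBard1 replicate 2 (1.1). *Ccl8*, *Ppbp* and *Il1r1* were thus higher in siWdr5 than in nt and than in each of the other knockdowns. Cell type markers differed in the same comparisons. Against siBard1, siWdr5 was called higher in 4 of 7 macrophage and leukocyte markers tested (*Cd53*, *Csf1r*, *Laptm5* and *Lyz2*) and 3 of 10 fibroblast markers (*Dcn*, *Lum* and *Thy1*). Against siBrca1 it was called higher in *Cd53*, *Col3a1*, *Dcn* and *Lum*. The part of these markers in the differences was not tested.

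At day 6 the calls came from siWdr5, with 10 members higher and 1 lower, against 3.33% and 1.5% of all genes. siBrca1 had 0 calls among the members, with a background of 0.0% higher and 0.0% lower, and siBard1 had 0 with a background of 0.0713% and 0.0%. In these latter comparisons limma gave 1123 and 1908 of the 14028 genes an unadjusted p under 0.05, limma-voom on the reads called 0 and 6 genes, and neither called a member, so few genes of any kind passed. The 10 higher ones in siWdr5 were the chemokines *Ccl8*, *Cxcl12*, *Cxcl14* and *Ppbp*, the antagonist *Il1rn*, and the receptors *Il1r1*, *Il1rl2*, *Il31ra*, *Il4ra* and *Il6st*. The lower one was *Il16*. By adjusted p alone 17 members passed (37.0%), against 21.8% of all genes. Of the 10, *Ccl8*, *Ppbp*, *Cxcl14* and *Il1r1* had been called at day 3.

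Most of these day 6 calls depended on siWdr5 replicate 2, and some of them also on other libraries. Leaving out a library leaves its group with 1. Without siWdr5 replicate 2, the library with the most reads, limma called 1 member (*Il4ra*) and 33 of all genes in place of 678, and the other 9 higher members then had log2 fold changes of 0.80 to 2.41. Without nt replicate 2 it called 6 members (*Ccl8*, *Cxcl14*, *Il1r1*, *Il4ra*, *Il6st* and *Ppbp*) and 206 genes, with *Cxcl12* at 1.20 and *Il1rl2* at 0.77. *Il31ra* and *Il16* were lost whichever of the 4 libraries was left out (1.56 to 2.07 and −1.37 to −1.32), and *Il1rn* also without nt replicate 1 (1.47). The direction of the 11 members was the same without each library in turn. The sum of the fibroblast markers was again higher in siWdr5, at 11037 and 14688 CPM, than in nt, at 6285 and 6039. Of the 10 markers, *Col1a1*, *Col1a2* and *Pdgfrb* were called higher and none lower. The siWdr5 changes of *Dcn* and *Lum* were called lower at day 6 than at day 3. The endothelial sum was also higher in siWdr5, at 27.8 and 35.0 against 16.2 and 15.9 CPM in nt, with *Tek* called higher (1.02, SE 0.18, adjusted p = 0.00636). Of the macrophage and leukocyte markers, *Csf1r* (1.33) and *Mrc1* (1.66) were called higher and *Cd14* lower (−1.58). The part of these markers in the day 6 results was not tested.

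Among the chemokines at day 6, *Ccl8* stood at 3.82 and 4.36 CPM in nt, 12.1 and 15.7 CPM in siWdr5, 5.08 and 4.59 CPM in siBrca1, and 3.52 and 4.61 CPM in siBard1. Only siWdr5 was apart from the other groups. It rose 3.39-fold (log2 fold change 1.76, SE 0.23, adjusted p = 0.00333). *Cxcl14* stood at 10.7 and 11.8 CPM in nt, 35.5 and 52.3 CPM in siWdr5, 18.0 and 22.1 CPM in siBrca1, and 31.0 and 16 CPM in siBard1 and rose 3.84-fold in siWdr5 (log2 fold change 1.94, SE 0.28, adjusted p = 0.00362). The siBrca1 and siBard1 libraries also lay above nt, without a call (0.83 and 0.99).

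*Ppbp* stood at 0.376 and 0.455 CPM in nt, 2.20 and 4.91 CPM in siWdr5, 0.830 and 1.22 CPM in siBrca1, and 0.813 and 0.702 CPM in siBard1, which is 3 and 4 reads in nt, 30 and 125 in siWdr5, 8 and 16 in siBrca1, and 9 and 12 in siBard1. All knockdown libraries lay above nt, and siWdr5 lay above the rest, with a log2 fold change of 2.99 (SE 0.44, adjusted p = 0.00362) that rests on a very low level in nt. *Cxcl12* stood at 20.5 and 17.7 CPM in nt, 38.9 and 57.2 CPM in siWdr5, 23.6 and 40.4 CPM in siBrca1, and 31.9 and 35.0 CPM in siBard1 and rose 2.47-fold in siWdr5 (log2 fold change 1.31, SE 0.25, adjusted p = 0.00798), with siBrca1 replicate 2 inside the siWdr5 range.

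*Ccl2* and *Ccl7*, which siWdr5 had raised at day 3, were not called at day 6. *Ccl2* stood at 33.0 and 20.5 CPM in nt, 40.5 and 47.2 CPM in siWdr5, 27.7 and 30.7 CPM in siBrca1, and 40.4 and 28.8 CPM in siBard1. For *Ccl7* the levels were 43.9 and 35.8 CPM in nt, 66.0 and 80.1 CPM in siWdr5, 43.8 and 47.4 CPM in siBrca1, and 66.9 and 41.1 CPM in siBard1. In both genes siWdr5 replicate 2 was the highest library, siBard1 replicate 1 lay within 1 CPM of siWdr5 replicate 1, and the other 5 libraries lay below these. The log2 differences in siWdr5 were 0.75 (SE 0.23, adjusted p = 0.0396) and 0.88 (SE 0.21, adjusted p = 0.0174), under 2-fold.

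The chromosome 5 genes were uneven between replicates at day 6. *Cxcl1* stood at 13.2 and 6.12 CPM in nt, 11.9 and 19.4 CPM in siWdr5, 6.29 and 12 CPM in siBrca1, and 12 and 10.3 CPM in siBard1 and *Cxcl5* at 114 and 57.2 CPM in nt, 75.5 and 102 CPM in siWdr5, 48.8 and 97.5 CPM in siBrca1, and 97.0 and 108 CPM in siBard1. In nt replicate 1 was higher and in siBrca1 replicate 2 was higher, so that the groups overlapped, and no member of the cluster other than *Ppbp* was called. *Cxcl3* showed the same spread, with 4.38 and 1.25 CPM in nt, 2.48 and 4.56 CPM in siWdr5, 1.61 and 3.64 CPM in siBrca1, and 0.738 and 1.60 CPM in siBard1. In nt the log2 difference of replicate 1 over replicate 2 was 1.11 for *Cxcl1*, 0.82 for *Cxcl2*, 1.80 for *Cxcl3* and 0.99 for *Cxcl5*, whereas the median absolute difference between these libraries was 0.159 over all genes tested and 0.227 over the 46 members. In siBrca1 the same genes differed by −0.93, −1.45, −1.18 and −1.0, with replicate 2 the higher.

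*Il6* was low in every group at day 6, at 0.696 and 0.934 CPM in nt, 0.757 and 1.43 CPM in siWdr5, 1.44 and 1.08 CPM in siBrca1, and 0.888 and 0.419 CPM in siBard1, or 6 to 34 reads. Both siBrca1 libraries lay above nt and siBard1, and siWdr5 overlapped every other group. The differences, none of them called, were 0.37 (SE 0.48, adjusted p = 0.603) in siWdr5, 0.63 in siBrca1 and −0.40 in siBard1. *Il11* stood at 4.14 and 3.09 CPM in nt, 2.00 and 1.93 CPM in siWdr5, 3.95 and 3.24 CPM in siBrca1, and 2.39 and 3.10 CPM in siBard1. Here the siWdr5 libraries were the lowest, with −0.86 (SE 0.27, adjusted p = 0.0463), the opposite sign to day 3. *Il16*, a ligand of CD4, stood at 18.8 and 18.1 CPM in nt, 7.37 and 7.12 CPM in siWdr5, 10.6 and 6.68 CPM in siBrca1, and 7.73 and 18.4 CPM in siBard1, and was lower in siWdr5 than in nt (log2 fold change −1.35, SE 0.35, adjusted p = 0.0230). siBrca1 replicate 2 lay below both siWdr5 libraries and siBard1 replicate 1 just above them. Of the exon bases of *Il16*, 17.4% overlap a gene on the other strand, and whether reads were counted by strand is not given in the sources used here. *Il33*, *Cx3cl1* and the low genes *Ccl5* and *Cxcl10* gave no call at day 6. *Il33* stood at 11.7 and 10.5 CPM in nt, 8.06 and 10.7 CPM in siWdr5, 18.3 and 14.2 CPM in siBrca1, and 12.2 and 18.0 CPM in siBard1, *Cx3cl1* at 13.3 and 11.6 CPM in nt, 17.5 and 16.1 CPM in siWdr5, 20.4 and 16.4 CPM in siBrca1, and 18.0 and 15.8 CPM in siBard1. The counts of *Ccl5* were 11 and 2 reads in nt, 3 and 7 in siWdr5, 29 and 12 in siBrca1, and 10 and 31 in siBard1, and those of *Cxcl10* were 3 and 5 reads in nt, 2 and 10 in siWdr5, 15 and 11 in siBrca1, and 13 and 21 in siBard1.

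Receptors made up 5 of the 10 rises at day 6, near their share of the members, since 22 of the 46 tested are receptors or binding proteins. Of these 22.7% were called higher, against 21.7% of all members tested. *Il6st* stood at 142 and 142 CPM in nt, 355 and 468 CPM in siWdr5, 154 and 252 CPM in siBrca1, and 297 and 206 CPM in siBard1. Its nt libraries were the lowest of the 8, siBrca1 replicate 1 lay just above them, and siWdr5 was above all other libraries. It rose 2.87-fold in siWdr5 (log2 fold change 1.52, SE 0.24, adjusted p = 0.00420). *Il31ra*, next to it on the chromosome, stood at 3.5 and 4.28 CPM in nt, 11.4 and 16.2 CPM in siWdr5, 1.35 and 3.71 CPM in siBrca1, and 12.4 and 4.0 CPM in siBard1, with siBard1 replicate 1 inside the siWdr5 range and siBard1 replicate 2 inside the nt range, and had 1.81 (SE 0.53, adjusted p = 0.0362) in siWdr5.

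*Il1r1* stood at 66.0 and 61.3 CPM in nt, 133 and 159.5 CPM in siWdr5, 57.4 and 86.2 CPM in siBrca1, and 89.4 and 74.4 CPM in siBard1, with siWdr5 apart from the rest, and rose 2.29-fold (log2 fold change 1.20, SE 0.19, adjusted p = 0.00415). *Il1rl1* stood at 129 and 66.1 CPM in nt, 76.3 and 97.9 CPM in siWdr5, 94.7 and 110.5 CPM in siBrca1, and 158 and 159 CPM in siBard1, with nt replicate 1 between siBrca1 replicate 2 and siBard1 and nt replicate 2 the lowest, and was not called (−0.096, 0.15 and 0.78). *Il1rl2* rose to 16.7 and 16.9 CPM from 9.81 and 5.96 (1.13, SE 0.23, adjusted p = 0.0102), *Il4ra* to 310.1 and 381 CPM from 148 and 137 (1.27, SE 0.15, adjusted p = 0.00210), and *Il1rn* to 20.8 and 50.3 CPM from 12.3 and 11.7 (1.43, SE 0.42, adjusted p = 0.0374). Without siWdr5 replicate 2, the higher of the pair, *Il1rn* had 0.80.

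From day 3 to day 6 the nt cells changed 14 of the 46 members, 10 higher and 4 lower, against 7.8% and 4.03% of all genes. Higher at day 6 were *Ccl8* (2.78, SE 0.25, adjusted p = 1.46e-06), *Il11* (2.51, SE 0.34, adjusted p = 3.23e-05), *Il16* (2.41, SE 0.31, adjusted p = 2.60e-05), *Il7* (2.30, SE 0.35, adjusted p = 7.89e-05) and *Cxcl2* (1.81, SE 0.49, adjusted p = 0.00703), and, by 1.13 to 1.24, *Cxcl16*, *Il1rap*, *Il34*, *Il33* and *Il11ra1*. *Il11ra1*, the IL-11 receptor, has a near-identical copy that could share its reads. Lower at day 6 were *Ppbp* (−1.68, SE 0.35, adjusted p = 0.00103), *Cxcl12* (−1.38, SE 0.20, adjusted p = 7.16e-05), *Il6st* (−1.24, SE 0.20, adjusted p = 0.000143) and *Il1rn* (−1.09, SE 0.41, adjusted p = 0.0391).

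Several of these moved in nt the opposite way to the siWdr5 change at day 6. *Il6st*, *Cxcl12*, *Ppbp* and *Il1rn* fell in nt and were higher in siWdr5, and *Il16* rose in nt and was lower in siWdr5, but both comparisons use the nt libraries of day 6, which by itself pulls the values of both comparisons apart. *Ccl8* rose in nt and was higher still in siWdr5. Without nt day 6 replicate 1 the course lost *Cxcl2* (1.40) and *Il34* (0.98), and without nt day 3 replicate 2 it lost *Cxcl2* (1.65) and *Il33* (0.88). *Il1rn* was lost whichever of the 4 nt libraries was left out (−1.13 to −1.06). *Lif* (0.025), *Il1r1* (0.025) and *Il6ra* (−0.055) had small differences with adjusted p of 0.910, 0.912 and 0.731.

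**Figure D4:**
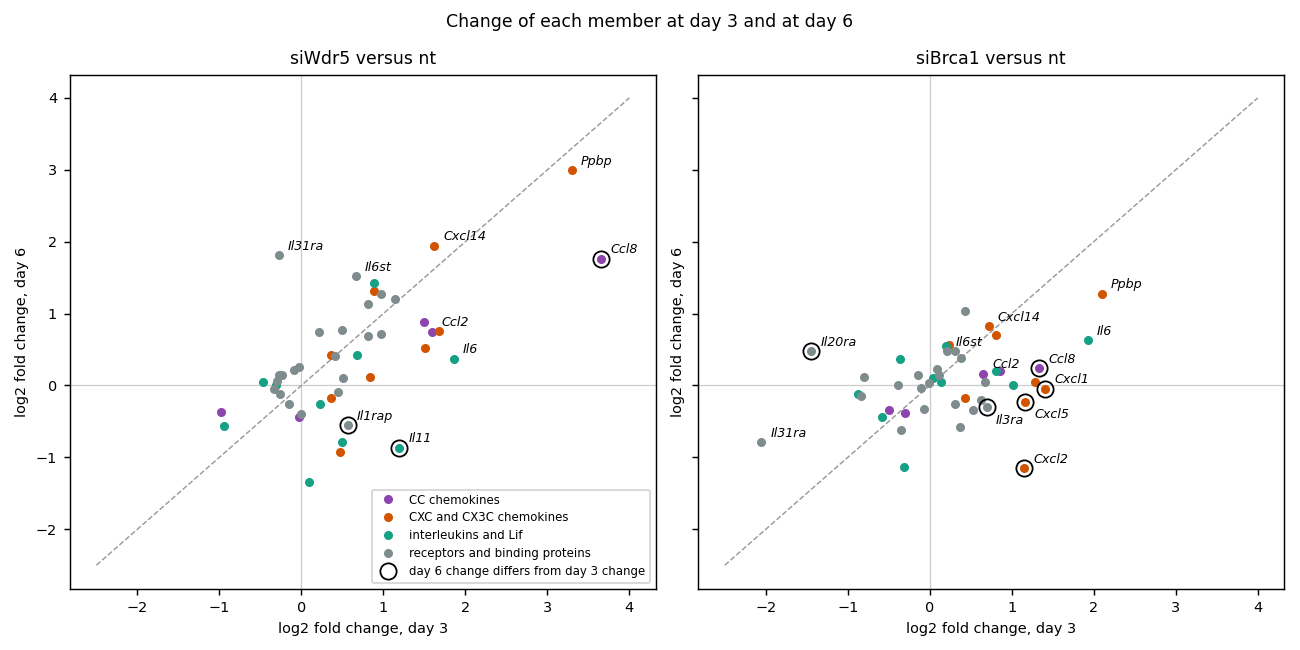
Log2 fold change against nt at day 3 (x axis) and day 6 (y axis) of the 46 members tested, for siWdr5 (left) and siBrca1 (right), coloured by role, with a dashed line where both are equal. Rings mark members whose 2 changes differed by the test of the difference, 3 in siWdr5 and 6 in siBrca1. *Ppbp* and *Cxcl14* lie near the line in siWdr5, and *Ccl8* lies below it.

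Whether a knockdown acted differently on the days was tested as an interaction, the change at day 6 less that at day 3. In siWdr5 it was called for 3 members, all with the lower value at day 6 (background 0.691% higher and 0.699% lower): *Ccl8* (−1.90, SE 0.35, adjusted p = 0.0196), *Il11* (−2.06, SE 0.47, adjusted p = 0.0350) and *Il1rap* (−1.12, SE 0.22, adjusted p = 0.0247). With only the siWdr5 and nt libraries in the fit the count was 5, and with no trend on level it was 1, *Ccl8*. In siBrca1 the interaction was called for 6 (background 3.96% and 4.64%), of which *Ccl8*, *Cxcl1*, *Cxcl2*, *Cxcl5* and *Il3ra* had the lower value at day 6 and *Il20ra* the higher one. With only the 8 libraries of siBrca1 and nt in the fit 1 of the 6 was called, *Il3ra*, and limma-voom on the reads called 4, without *Ccl8* and *Cxcl1*. In siBard1 none was called (background 0.0143% and 0.0285%). For *Il6* the values were −1.49 (SE 0.53, adjusted p = 0.108) in siWdr5, −1.30 (SE 0.53, adjusted p = 0.0939) in siBrca1 and −1.97 (SE 0.53, adjusted p = 0.0796) in siBard1, which did not pass, although its day 3 calls were absent at day 6. *Ccl8* and *Il1rap* in siWdr5 were called in 1 of the 8 fits that left out 1 of their libraries, that without nt day 6 replicate 2 (−1.8 and −1.27), and *Il11* in none (−2.27 to −1.85). Over all genes tested the siWdr5 interaction had a median of 0.12. In siBrca1, *Cxcl1*, *Cxcl2* and *Cxcl5* were lost without nt day 6 replicate 1 (−0.90, −1.89 and −0.89) and without siBrca1 day 6 replicate 1 (−0.99, −1.58 and −0.89), the uneven libraries, and also without either nt library of day 3 or siBrca1 day 3 replicate 2.

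The 24 members below the level filter were read as counts and have no test of their own. When limma was run on the whole table as an alternative, 6 of them passed the call rule in siWdr5 at day 3, all higher (25% of the 24, against 4.45% of the 4962 genes below the filter), and these are named here after their values were seen. *Cxcl15* of the chromosome 5 cluster had 1 and 0 reads in nt, 38 and 31 in siWdr5, 3 and 1 in siBrca1, and 4 and 3 in siBard1, and was thus close to absent outside siWdr5 at day 3. With 1 read in both nt libraries together no fold is given for it. *Ccl11*, the eosinophil attractant eotaxin and the remaining member analysed here of the chromosome 11 cluster, had 3 and 2 reads in nt, 18 and 12 in siWdr5, 4 and 3 in siBrca1, and 0 and 3 in siBard1. *Ccl9*, a chemokine of myeloid cells, had 3 and 2 reads in nt, 20 and 26 in siWdr5, 4 and 3 in siBrca1, and 4 and 4 in siBard1. In these genes both siWdr5 libraries lay above every other library of the day.

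The other 3 were the receptor genes *Il1r2*, *Il13ra2* and *Il2rg*. *Il1r2* and *Il13ra2* encode decoy receptors, which bind IL-1 and IL-13 without signalling. *Il1r2* had 6 and 5 reads in nt, 38 and 30 in siWdr5, 5 and 9 in siBrca1, and 12 and 5 in siBard1 at day 3 and 6 and 3 reads in nt, 14 and 39 in siWdr5, 2 and 4 in siBrca1, and 9 and 18 in siBard1 at day 6. In *Il13ra2* the day 3 counts were 1 and 2 reads in nt, 9 and 11 in siWdr5, 3 and 1 in siBrca1, and 2 and 4 in siBard1. *Il2rg*, the shared gamma chain of lymphocyte cytokine receptors, had 3 and 4 reads in nt, 10 and 9 in siWdr5, 5 and 3 in siBrca1, and 6 and 6 in siBard1, and 30.5% of its exon bases overlap a gene on the same strand. At day 6 in siWdr5 2 of the 24 passed as higher, *Il1r2* and *Ccl11*, against 1.01% of the genes below the filter. *Ccl11* had 5 and 6 reads in nt, 37 and 76 in siWdr5, 1 and 14 in siBrca1, and 3 and 19 in siBard1, so siWdr5 was again the highest group.

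In siBrca1 at day 3 the same run passed *Ccl5*, given above, as higher, and *Il5* and *Il9r*, cytokine and receptor genes of leukocytes, as lower, which is 1 and 2 of the 24, against 3.69% and 6.23% of the genes below the filter. *Il5* had 14 and 17 reads in nt, 8 and 7 in siWdr5, 3 and 1 in siBrca1, and 11 and 9 in siBard1, and 27.1% of its exon bases overlap a gene on the other strand. For *Il9r* the counts were 6 and 10 reads in nt, 5 and 3 in siWdr5, 3 and 0 in siBrca1, and 1 and 1 in siBard1. Between day 3 and day 6 of nt, *Ccl20*, *Il13ra2*, *Il17re* and *Il23a* passed as higher at day 6, 4 of the 24 (16.7%) against 13.7% of the genes below the filter. Of these, *Il23a* went from 2 and 0 reads to 9 and 6.

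**Figure D5:**
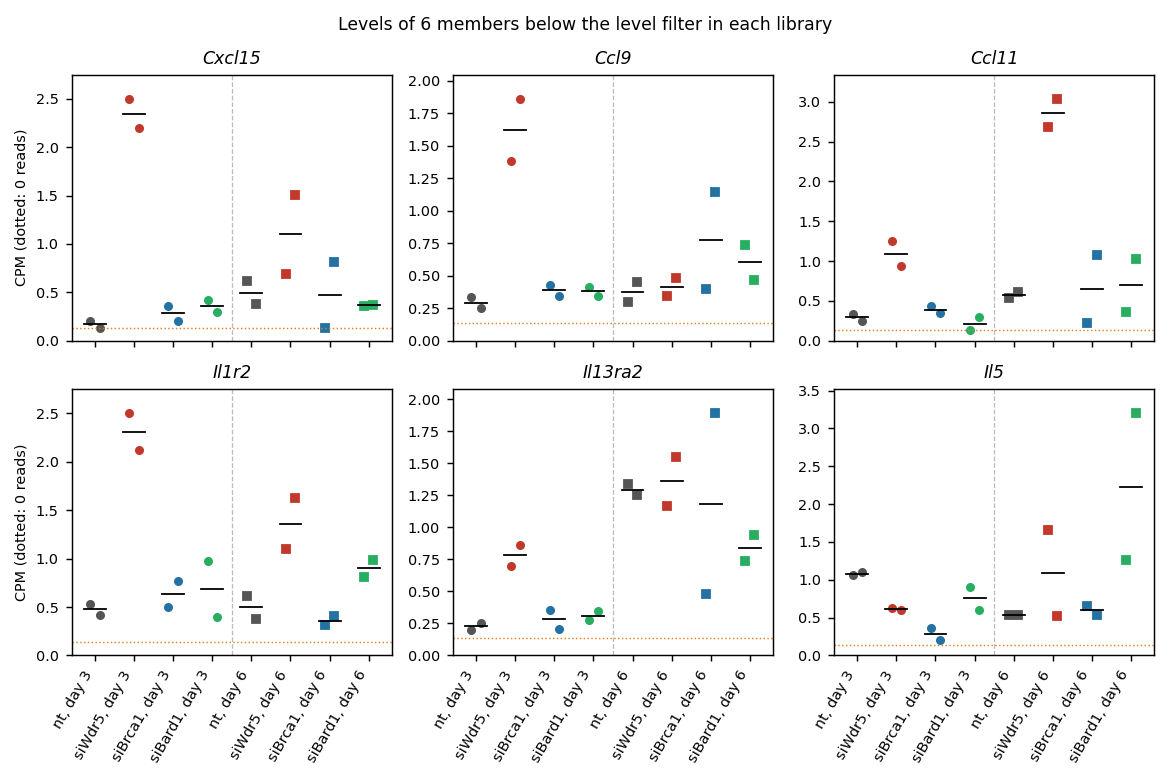
Level in CPM, on axes from 0, of 6 members below the level filter in each library, with means of 2 libraries as black lines and a dotted line at 0.136 CPM, the value of 0 reads. *Cxcl15*, *Ccl9* and *Il1r2* are highest in siWdr5 at day 3, and *Il5* is lowest in siBrca1 at day 3.

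Genes that receive or pass on these signals were taken from 5 lists. Of all genes tested at day 3, 4.1% were called higher and 2.95% lower in siWdr5. The shares were 7.12% and 6.27% in siBrca1 and 1.58% and 0.656% in siBard1. At day 6 they were 3.33% and 1.5% in siWdr5 and 0.0713% and 0.0% in siBard1. For the interactions they were 0.691% and 0.699% in siWdr5 and 3.96% and 4.64% in siBrca1. Of the 4 chemokine receptors tested, siWdr5 raised *Cxcr6*, the receptor of *Cxcl16* (2.03, SE 0.31, adjusted p = 0.000318), and the scavenger *Ackr4* (1.02, SE 0.36, adjusted p = 0.0405) at day 3, and *Cxcr6* and *Ackr3* at day 6 (1.34 and 1.14). siBard1 raised *Cxcr6* at day 3 (1.48) and siBrca1 raised none. Of 16 NF-kB subunits and feedback inhibitors, *Tnfaip3* (A20, an inhibitor of NF-kB that is also its target) was called in siBrca1 at day 3 (1.20, SE 0.19, adjusted p = 0.000174) and none was called in siWdr5, siBard1 or at day 6. That 1 of the 16 is near the share of all genes called higher in siBrca1. *Tnfaip3* had 0.74 (SE 0.19, adjusted p = 0.00743) in siWdr5 and 0.96 (SE 0.19, adjusted p = 0.00486) in siBard1, and the inhibitor *Nfkbia* had 0.46 (SE 0.12, adjusted p = 0.00748) in siBrca1. The median log2 fold change of the list was 0.27, 0.29 and 0.068 in siWdr5, siBrca1 and siBard1 at day 3, beside the medians of all genes given above.

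Of 20 genes of IL-1, TNF and toll-like receptor signalling, siWdr5 raised *Irak2*, a kinase-like adaptor (1.27, SE 0.18, adjusted p = 0.000177), and *Ptgs2*, the prostaglandin synthase Cox-2 (1.52, SE 0.16, adjusted p = 1.57e-05), at day 3. siBrca1 raised these (2.13 and 2.09) and also *Tlr2* (1.01) and the TNF receptor *Tnfrsf1b* (1.04), and siBard1 raised *Ptgs2* (1.04). None of the 20 was called in a knockdown at day 6. The interactions of *Irak2* and *Ptgs2* were called in siWdr5 (−1.05 and −1.94) and in siBrca1 (−2.23 and −1.96), with the smaller change at day 6.

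Among 21 partners of gp130, JAK-STAT and SOCS genes, those raised by siWdr5 included *Osmr*, the oncostatin M receptor that pairs with gp130 and with *Il31ra* (1.09, SE 0.11, adjusted p = 1.36e-05), and *Cntfr*, the CNTF receptor (1.09) at day 3, and *Socs2*, an inhibitor, fell (−1.40). siBrca1 also raised *Cntfr* (1.58) and its ligand *Clcf1* (1.05) and lowered *Socs2* (−1.16). At day 6 the rises in siWdr5 included *Osmr* (1.11), the LIF receptor *Lifr* (1.55, SE 0.25, adjusted p = 0.00479) and *Stat5a* (1.04), the cytokine *Ctf1* fell (−1.13), and siBard1 raised *Stat5a* (1.36). *Socs3*, a target of STAT3, had 0.57 (SE 0.15, adjusted p = 0.0110) at day 3 and 0.84 (SE 0.15, adjusted p = 0.00741) at day 6 in siWdr5, under 2-fold.

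Of 8 colony stimulating factors and receptors, *Csf1* rose in the 3 knockdowns at day 3 (1.47, 1.78 and 1.05 in siWdr5, siBrca1 and siBard1) and in siWdr5 at day 6 (1.21). Its receptor *Csf1r*, which is also a macrophage marker, rose in siWdr5 (1.81 at day 3, 1.33 at day 6) and siBrca1 (1.06 at day 3), from 18 and 27 reads in nt, 78 and 80 in siWdr5, 45 and 38 in siBrca1, and 31 and 47 in siBard1 at day 3. *Kit*, the stem cell factor receptor, fell in siBrca1 (−2.38) and siBard1 (−1.21) at day 3. Of the 7 macrophage and leukocyte markers tested, siWdr5 raised *Cd53* and *Csf1r* at day 3, siBrca1 raised *Cd68* and *Csf1r*, and siBard1 none, and the day 6 calls in siWdr5 are given above. *Lyz2* had 30 and 11 reads in nt, 25 and 42 in siWdr5, 73 and 27 in siBrca1, and 3 and 14 in siBard1 at day 3 and *Laptm5* 107 and 124 reads in nt, 226 and 206 in siWdr5, 132 and 99 in siBrca1, and 92 and 130 in siBard1. Against nt at day 3, *Csf1r* was thus called in both siWdr5 and siBrca1, *Cd53* only in siWdr5 and *Cd68* only in siBrca1. *Cd14* was called in no knockdown at day 3, with 16 and 18 reads in nt, 16 and 10 in siWdr5, and 19 and 10 in siBrca1. The part of these markers in the chemokine results was not tested.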

How the data were processed

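RNA depleted of ribosomal RNA was sequenced in 16 libraries. The authors aligned reads to mm10 with STAR 2.5.2b, filtered low counts and deposited log2 CPM values with a prior, made with edgeR 3.20.9. The counter, the annotation and the use of strand are not given in the sources used here. Undoing the log gave whole reads (within 0.1) for 100% of values, from which depth was taken.

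The members, lists, comparisons and tests were chosen with earlier results of these data known. The deposited log2 values went into limma (version 3.58.1, R 4.3.3), with 1 mean per group, a trend on mean level and Benjamini-Hochberg adjustment over 14028 genes, per day for the knockdowns and on all 16 libraries for the nt course and the interactions. Tests are two-sided. With 2 libraries against 2, an exact permutation test of a single value cannot go below 0.333, so summed levels have no test. The fits were also run on simulated counts with the same spread for every gene, which cannot show how calls hold for genes that vary more. Alternatives were the level filter, the scaling, the pseudocount, the trend, the libraries fitted, the replicate block, limma-voom on the reads, and leaving out each library.

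Named with values were the members called in any of the 10 planned comparisons, up to the 25 with the largest change, and 15 fixed ones. Members outside this rule (such as *Il3ra*, *Il11ra1*, *Il17d*, *Il18rap*, *Il6ra* and those below the filter) and the list genes were named after their values were seen. The lists were chemokine receptors, NF-kB genes, IL-1, TNF and toll-like receptor signalling, gp130, JAK-STAT and SOCS genes, colony stimulating factors, and markers of fibroblasts, macrophages, lymphocytes, platelets and endothelium. Promoters and gene positions are from RefSeq and GENCODE vM21 on GRCm38. 1 result of the gp130 list is not reported here.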

Additional observations from a re-analysis of the deposited data

Results flagged for a closer look

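For 9 pairs of a member and a knockdown the change at day 6 differed from the change at day 3 by limma's interaction test. In siWdr5 the change at day 6 less that at day 3 was −1.90 on the log2 scale for *Ccl8* (adjusted p = 0.0196), −2.06 for *Il11* (adjusted p = 0.0350) and −1.12 for *Il1rap* (adjusted p = 0.0247). For *Il11* the log2 difference from nt was 1.19 at day 3 and −0.86 at day 6, and for *Il1rap* it was 0.56 and −0.55. In siBrca1 the values were −1.09 for *Ccl8* (adjusted p = 0.0390), −1.46 for *Cxcl1* (adjusted p = 0.0425), −2.30 for *Cxcl2* (adjusted p = 0.0294), −1.39 for *Cxcl5* (adjusted p = 0.0248), −1.0 for *Il3ra* (adjusted p = 0.00978) and 1.92 for *Il20ra* (adjusted p = 0.0337). *Cxcl2* had 1.15 at day 3 and −1.15 at day 6, and *Il20ra* had −1.44 and 0.48. For *Il20ra* the call was lost without nt day 3 replicate 2 (1.52) or siBrca1 day 3 replicate 2 (1.27), among others, and *Ccl8* in siBrca1 was lost whichever of the 8 libraries was left out (−1.19 to −0.99). *Il3ra* was lost without nt day 3 replicate 1 (−0.84), nt day 6 replicate 1 (−0.89), siBrca1 day 3 replicate 2 (−0.99) or siBrca1 day 6 replicate 2 (−0.87). The targeted transcripts also differed less from nt at day 6 than at day 3, and the part of this in the differences was not tested.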

How the results depend on the processing

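No direction of a called member reversed under any alternative run. Of 659 values under other settings 598 kept their call and 61 lost it, and of 312 values without 1 library 197 kept it and 115 lost it, so that 30 of the 69 calls held whichever library was left out. With adjusted p under 0.05 alone the members called were 21 in siWdr5, 22 in siBrca1 and 11 in siBard1 at day 3, 17 in siWdr5 at day 6, 17 for siWdr5 against siBrca1 and 12 against siBard1, beside 35.0%, 47.2%, 14.5%, 21.8%, 15.7% and 8.63% of all genes. At a mean log2 CPM of at least 2 there were 5, 3 and 0 at day 3, 8 in the nt course, 1 and 3 in the siWdr5 and siBrca1 interactions, and 5 for siWdr5 against siBrca1, with fewer members tested. A pseudocount of 1 CPM left 5 in siBrca1 and 1 in siBard1 at day 3. Other libraries in the fit gave 1 in siBard1 at day 6, 5 in the siWdr5 interaction and 1 in the siBrca1 interaction, and no trend gave 1 in the siWdr5 interaction; the cause was not tested. Without 1 library the counts were 9 to 10, 6 to 10 and 2 to 3 at day 3, 1 to 10, 0 to 0 and 0 to 1 at day 6, 11 to 16 in the nt course, 0 to 3, 0 to 7 and 0 to 0 for the interactions, 4 to 8 for siWdr5 against siBrca1 and 2 to 8 against siBard1. limma-voom on the recovered reads called 1057, 1934 and 353 genes at day 3, against 989, 1878 and 314.

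Whether replicate numbers pair libraries was not shown. The correlation of deviations between same-numbered libraries was −0.0931 to 0.0721 at day 3 and −0.0696 to 0.260 at day 6. With the replicate block the members called were 10, 10 and 3 at day 3, 11, 0 and 0 at day 6, 14 in the nt course, 3, 6 and 0 for the interactions, and 8 and 7 for siWdr5 against siBrca1 and siBard1, and none of the 69 calls was lost.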
